A study of Rattus norvegicus with 4 samples.

Results

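The genes described here are those that carry carbon from pyruvate and from fatty acids into the tricarboxylic acid (TCA) cycle, and the enzymes of the cycle itself. A list of 46 rat genes was matched by accession to the gene probes of the array. It held 6 genes of pyruvate entry, 16 of the TCA cycle with its cytosolic counterparts and the itaconate branch, and 24 of fatty acid oxidation. Of the 46 genes, 45 were measured, among 16581 named genes on the array, and Pdhx, the dihydrolipoamide dehydrogenase binding protein of the pyruvate dehydrogenase complex, had no matched probe. They were read in NR8383 cells, a line of alveolar macrophages taken by lavage from the lung of a normal rat and grown partly attached and partly floating. The cells, after 20 passages, were held in medium with 15% serum and seeded for 48 h in 25 cm2 flasks. They were exposed for 4 h to 3 cm2 of titanium dioxide surface per cm2 of culture, as NM105 particles, a mixture of anatase and rutile. The 4 NM105 cultures, called biological replicates in the labels, each gave Cy3-labelled RNA for 1 array of 1 slide. The untreated cultures of the study were not analysed here, so no value below is a response to the particles, and any spread between arrays holds culture, extraction, labelling and hybridisation together.

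The pyruvate dehydrogenase complex turns pyruvate into acetyl-CoA inside the mitochondrion, and fatty acids reach the same product after activation to acyl-CoA, transfer across the inner membrane on carnitine and repeated shortening in the spiral of beta-oxidation. Acetyl-CoA then enters the TCA cycle, whose dehydrogenases pass electrons to the respiratory chain. Macrophages are known to shift between these routes on activation: oxidation of fatty acids is associated with alternatively activated cells, while inflammatory stimuli break the cycle and divert cis-aconitate to itaconate. Lung macrophages are further known for clearing lipid-rich surfactant.

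A level is the log2 of the processed intensity minus the 75th percentile, on the same array, of the probes with signal on all 4 arrays. That reference stood at 1431, 585, 767 and 831 intensity units on replicates 1 to 4, and 14407, 10809, 12038 and 11911 probes were well above background, so replicate 1 was the brightest array and replicate 2 the dimmest. Of the macrophage markers, 9 of 10 were detected on all 4 arrays and the other, Mrc1, on 1. No marker of epithelium (0 of 5), fibroblasts (0 of 4), T cells (0 of 2), B cells (0 of 2) or red blood cells (0 of 2) was detected on any array, and of 3 endothelial markers only Cdh5 was, at levels of -5.75 to -4.95. Because each probe binds with its own strength, levels were compared between arrays for the same gene. Across genes, level served only to group genes by brightness of signal and to plot spread against it.

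Nearly all of the listed genes of both routes gave signal. On all 4 arrays, 42 of the 45 measured members (93.3%) were well above background, against 35.2% of all 16581 named genes. Pyruvate entry was complete apart from the unmeasured Pdhx, with 5 of 5 genes detected, and so were the 12 mitochondrial TCA cycle enzymes, the 3 cytosolic counterparts, the 4 acyl-CoA dehydrogenases, the 3 genes of the electron transfer flavoprotein system, the 6 genes of the later steps of beta-oxidation and the 4 auxiliary and peroxisomal genes. The 3 exceptions were Acsl3 and Acsl4, which encode acyl-CoA synthetases, and Acod1, which encodes the enzyme that makes itaconate. Most genes of the cycle and of beta-oxidation are known to be active in nearly every cell with mitochondria.

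From array to array, the detected members varied about as much as other detected genes. Their SD over the 4 arrays had a median of 0.202 on the log2 scale (lowest 0.0323, highest 0.510), against 0.225 over the 5823 detected named genes with a level on every array, and 26 of the 42 lay under 0.225. In 2 members, the succinyl-CoA ligase subunit gene Sucla2 and the peroxisomal gene Hsd17b4, the highest array was at least 2-fold above the lowest. This is 4.76% of the members, against 8.96% of detected named genes, in both cases without a test. After each of the 4 other scalings of the arrays that were tried, no member reached 2-fold, against 4.84% to 8.83% of genes. Dim genes varied more than bright ones. When the detected genes were split into 4 bins of equal size by level, the median SD in the dimmest bin was 0.272 for 8 members and 0.299 for all genes, and in the brightest it was 0.126 for 15 members and 0.178 for all genes. In the bins between, the medians were 0.265 for 7 members and 0.247 for all genes, and 0.207 for 12 members and 0.204 for all genes.

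**Figure D1:**
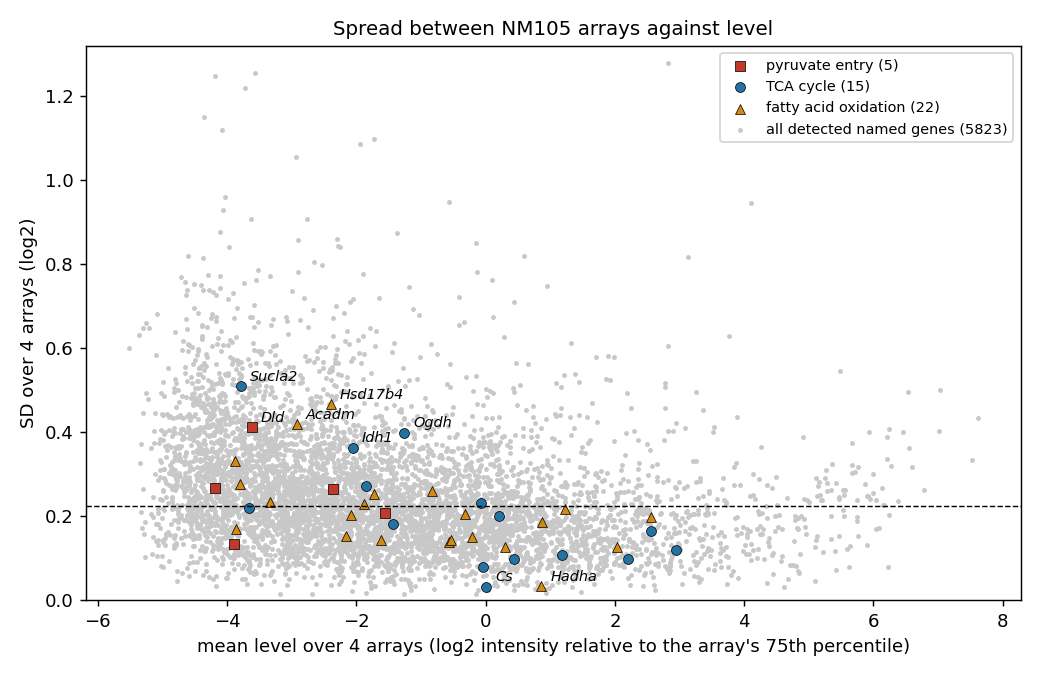
SD over the 4 NM105 arrays (log2, vertical axis) against mean level (log2 intensity relative to the array's 75th percentile, horizontal axis) for the 42 detected members by pathway and, in grey, 5823 detected named genes; the dashed line is the median SD of all genes, 0.225. Cs and Hadha lie near the bottom with SDs of 0.03, and Sucla2, at 0.51, is the highest member.

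At the entry of pyruvate, by the probes used here, 3 of the 4 measured genes of the pyruvate dehydrogenase complex were highest on replicate 1. Dld encodes the dihydrolipoamide dehydrogenase subunit, which reoxidises the lipoyl arm and also serves the 2-oxoglutarate dehydrogenase complex. Its level was -3.01, -3.74, -3.74 and -3.95 on replicates 1 to 4 (mean -3.61 ± 0.41 SD, n = 4). Replicate 1 stood above the other arrays and replicate 4 below them, an order that all 4 other scalings kept, although the SD was 0.18 after normexp background correction. Pdha1, for the alpha subunit that binds thiamine diphosphate and is switched off by phosphorylation, read -3.78, -4.32, -4.31 and -4.32. Replicates 2 to 4 were within 0.01 of each other here. Replicate 1 was the highest array in all scalings but normexp, where replicate 2 was. Pdhb, the beta subunit gene, lay between -2.71 and -2.06 and was also highest on replicate 1 (replicate 4 after normexp).

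By the probes used here, neither the core subunit gene nor pyruvate carboxylase was highest on replicate 1. Dlat, for the acetyltransferase on which the complex is built, read -3.87, -4.09, -3.78 and -3.85, the smallest spread of the group (SD 0.13), with replicate 3 highest (replicate 2 after normexp), while its second probe was highest on replicate 1. Pc encodes pyruvate carboxylase, which bypasses the complex and makes oxaloacetate from pyruvate. Its level was -1.43, -1.39, -1.86 and -1.57 (mean -1.56 ± 0.21 SD, n = 4). Replicate 2 was highest and replicate 3 lowest, under all 4 other scalings as well, so Pc did not share the order seen for Dld.

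Among the 12 mitochondrial enzymes of the cycle, the median SD was 0.143 and 9 lay under the median of all genes. Cs encodes citrate synthase, which joins acetyl-CoA to oxaloacetate as the first step. Its level was 0.06, 0.00, 0.01 and -0.02, the smallest SD of any member (0.03, n = 4). Highest over lowest was 1.05-fold, and its SD was at most 0.06 after the other scalings. Fh (fumarate hydratase), Idh2 (the NADP-dependent isocitrate dehydrogenase of the mitochondrion) and Mdh2 (mitochondrial malate dehydrogenase) varied slightly more, with SDs of 0.08, 0.10 and 0.10.

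The 3 subunit genes of the NAD-dependent isocitrate dehydrogenase, which takes isocitrate to 2-oxoglutarate, had SDs of 0.22 (Idh3a), 0.18 (Idh3b) and 0.17 (Idh3g). They did not share an order of arrays: Idh3a was highest on replicate 4 (replicate 2 after normexp), Idh3b on replicate 3 (replicate 4 with the 75th percentile over all probes), and Idh3g on replicate 2 under all 5 scalings.

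Around succinyl-CoA the genes divided with the scaling used here. Sucla2 encodes the ADP-forming beta subunit of succinyl-CoA ligase, which makes succinate. Its level was -3.28, -4.34, -4.09 and -3.44 (mean -3.79 ± 0.51 SD, n = 4), with replicates 1 and 4 high and replicates 2 and 3 low. The highest array was 2.09-fold above the lowest, 1.82- to 1.91-fold after the 3 other scalings of the processed intensity and 1.14-fold after normexp, where replicate 4 was highest and replicate 3 lowest. Its processed intensity was 28.9 to 148 units. Suclg1, for the alpha subunit that pairs with either beta subunit, had an SD of 0.12, and Suclg2, for the GTP-forming beta subunit, 0.27. After normexp the SDs were 0.09 for Sucla2, 0.15 for Suclg1 and 0.18 for Suclg2, so Sucla2 no longer varied most.

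Ogdh, the first subunit gene of the 2-oxoglutarate dehydrogenase complex, was the other uneven gene of the cycle with the scaling used here. Its levels were -1.59 to -0.70 (SD 0.40, or 0.18 after normexp), with replicate 1 highest (replicate 2 after normexp). Dlst, the succinyltransferase gene of the same complex, had an SD of 0.11 by the probe used here, 1 of 3. In the cytosol, Aco1 (aconitase, which doubles as the iron regulatory protein when its cluster is lost) read 0.29, 0.45, 0.07 and 0.01, with an SD of 0.20. Idh1, the cytosolic NADP-dependent isocitrate dehydrogenase gene, read -1.54, -2.32, -2.05 and -2.31 (mean -2.06 ± 0.36 SD, n = 4). Replicate 1 was the highest array for Idh1 in all 5 scalings, and for Aco1 replicate 2 was. The gene of the cytosolic malate dehydrogenase of the malate-aspartate shuttle, Mdh1, had an SD of 0.23.

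Acod1, the branch to itaconate that macrophages are known to open on inflammatory activation, was not well above background on any array. Its processed intensity was 8.73, 8.36, 11.7 and 17.8 units on replicates 1 to 4. These values were above the 99th percentile of the negative control spots, which was 5.62, 5.48, 5.07 and 5.96 units.

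**Figure D2:**
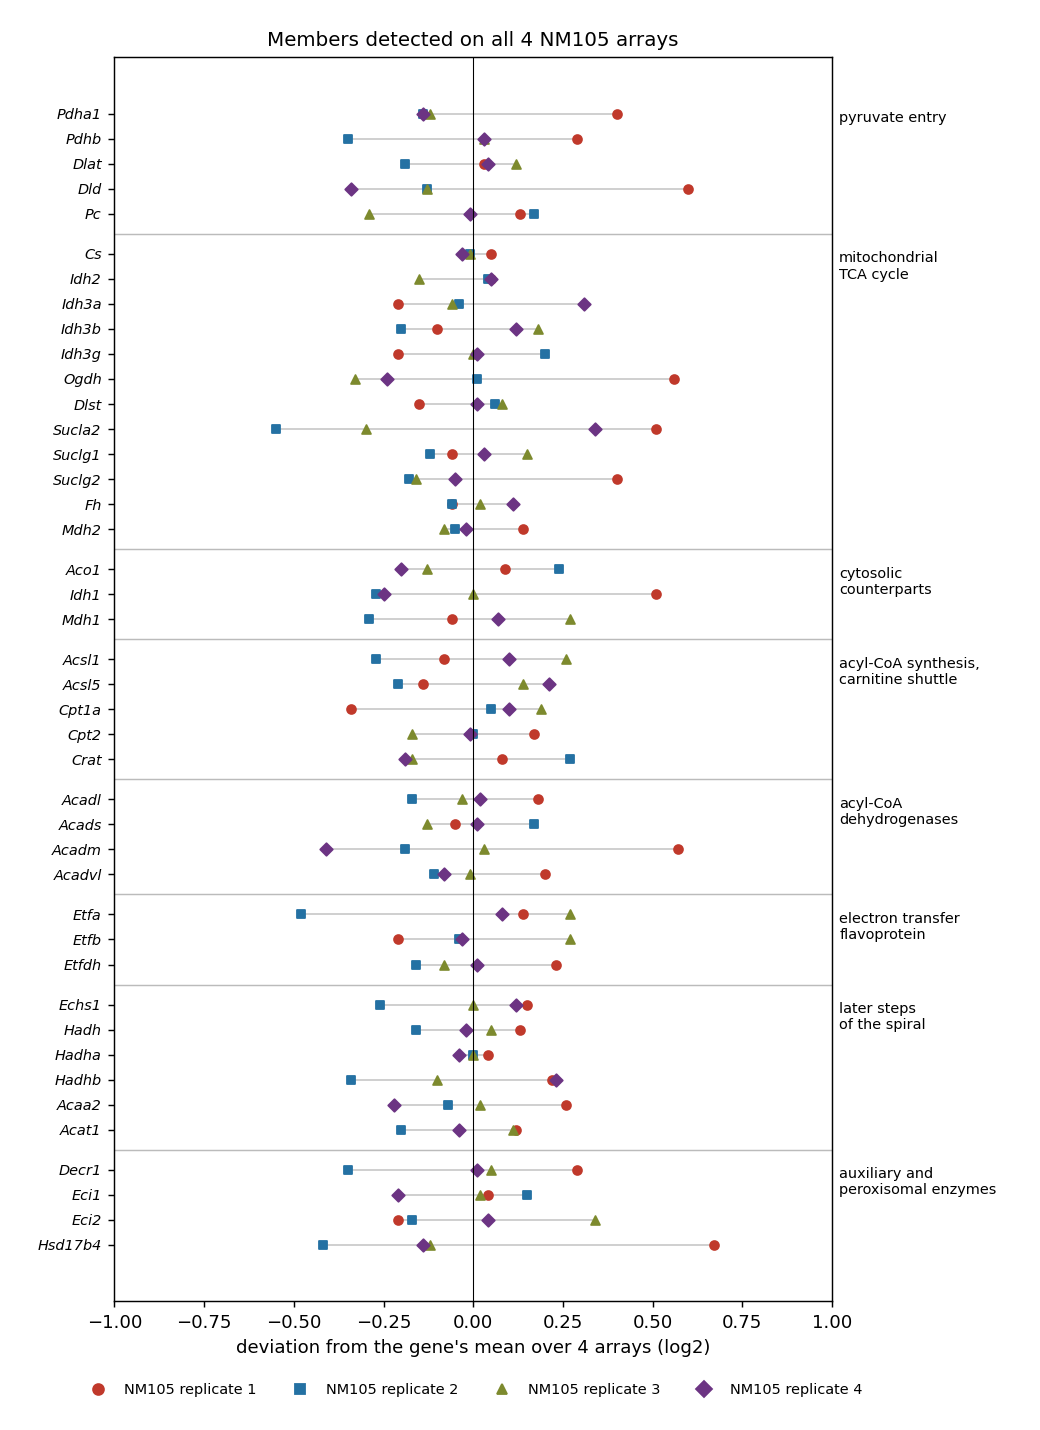
Deviation of each of the 42 detected members from its own mean over the 4 NM105 arrays (log2, horizontal axis), with 1 symbol per array and members grouped by role. Replicate 1 lies farthest right for 22 members and replicate 2 farthest left for 21, while the points of Cs and Hadha nearly coincide.

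Fatty acids are first activated by acyl-CoA synthetases. Acsl1 and Acsl5 were detected on all 4 arrays, Acsl3 on 3 (not on replicate 3) and Acsl4, known for its preference for arachidonic acid, only on replicate 1. Acsl4 had 39.5, 7.87, 10.2 and 7.34 intensity units, and only the first of these was well above background. Acsl5 read -0.47, -0.53, -0.18 and -0.11 (mean -0.32 ± 0.21 SD, n = 4). Replicates 3 and 4 were higher than replicates 1 and 2, and replicate 4 was highest in all 5 scalings.

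Carnitine then carries the acyl groups into the mitochondrion. Cpt1a encodes the carnitine palmitoyltransferase of the outer membrane, the step that malonyl-CoA inhibits and that limits the rate of the pathway. Its level was -3.68, -3.30, -3.15 and -3.24 (mean -3.34 ± 0.23 SD, n = 4), so replicate 1 was lowest, as in all 4 other scalings. With the scaling used here, replicate 1 was lowest for 7 of the 42 members (16.7%), against 25.0% of all genes. Under the 4 other scalings it was lowest for 5 to 12 members, with 11 members and 46.9% of all genes after normexp. Cpt2, the inner membrane enzyme that hands the acyl group back to CoA, was steadier, at -0.39, -0.56, -0.73 and -0.57 (SD 0.14). Replicate 3 was its lowest array under every scaling. Acsl1 and Crat (carnitine acetyltransferase, which buffers acetyl-CoA) had SDs of 0.23 and 0.22.

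The acyl-CoA dehydrogenases take the first electrons from fatty acids of decreasing chain length. With the scaling used here, 3 of these 4 genes were even. Acadm, the medium-chain enzyme gene, read -2.35, -3.11, -2.90 and -3.33 (mean -2.92 ± 0.42 SD, n = 4). Replicate 1 was highest and replicate 4 lowest, by 1.97-fold, and by 1.20-fold after normexp, where replicate 2 was highest. Acads (short chain) read 1.99, 2.20, 1.90 and 2.04, and Acadl (long chain) read -0.35, -0.70, -0.56 and -0.51, with SDs of 0.13 and 0.14. Acads was highest on replicate 2 and Acadl on replicate 1 in all 5 scalings, so these genes did not follow the same order of arrays. Acadvl (very long chain) had an SD of 0.14. After normexp the SDs were 0.12 (Acadm), 0.10 (Acads), 0.15 (Acadl) and 0.14 (Acadvl), so Acadm was no longer the uneven gene.

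The electron transfer flavoprotein collects these electrons, and its dehydrogenase passes them to ubiquinone. Etfa, the alpha subunit gene, read -3.73, -4.35, -3.60 and -3.79 (mean -3.87 ± 0.33 SD, n = 4). Replicate 2 was lower than the other arrays, though not after normexp, where replicate 1 was lowest and the SD was 0.16. Etfdh, the dehydrogenase gene, read -3.63, -4.02, -3.95 and -3.86 (SD 0.17). Etfb, the beta subunit gene, lay between 2.35 and 2.83, with replicate 3 highest, as for Etfa, in all 5 scalings.

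In the later steps, Hadha had the same SD as Cs to 2 decimals by the probe used here. It encodes the alpha subunit of the mitochondrial trifunctional protein, which hydrates and dehydrogenates long-chain intermediates. Its level was 0.90, 0.87, 0.86 and 0.82 (SD 0.03), and highest over lowest was 1.06-fold, or 1.07- to 1.11-fold after the other scalings. Hadhb, which encodes the thiolase subunit of the same protein, read -3.59, -4.15, -3.91 and -3.58, with replicate 4 highest throughout and replicate 2 lowest except after normexp. With the scaling used here it was the least even of the 6 (SD 0.28), while after normexp its SD was 0.18 and that of Echs1 0.20. The hydratase gene Echs1, the thiolase gene Acaa2, the acetoacetyl-CoA thiolase gene Acat1 and the dehydrogenase gene Hadh had SDs of 0.19, 0.20, 0.15 and 0.13.

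Auxiliary enzymes deal with double bonds and with very long chains. Hsd17b4 encodes the peroxisomal bifunctional protein, and its level was -1.73, -2.81, -2.52 and -2.53 (mean -2.40 ± 0.47 SD, n = 4). Replicate 1 was highest and replicate 2 lowest under all 5 scalings, by 2.12-fold here, by 1.86- to 1.94-fold after the 3 other scalings of the processed intensity and by 1.19-fold after normexp. Decr1, the mitochondrial dienoyl-CoA reductase gene, had the same highest and lowest arrays, at -0.54, -1.17, -0.77 and -0.82 (SD 0.26). Eci1, an enoyl-CoA isomerase gene, was highest on replicate 2 and lowest on replicate 4, at -2.12, -2.01, -2.13 and -2.37 (SD 0.15). For its relative Eci2 the SD was 0.25 and replicate 3 was the highest array.

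For 7 members the array carried the same probe at several spots, which allowed a test of whether arrays differed by more than the spots within them. The test was limma's moderated F over the 4 arrays with Benjamini-Hochberg adjustment over 1594 probes. Its p-values concern the arrays, since all spots of an array share the RNA of 1 culture. At an adjusted p below 0.05, 6 of the 7 members differed between arrays, against 84.6% of the 871 named genes tested, so a call was the usual outcome for any gene. With the further condition that the highest array be at least 2-fold above the lowest, limma called 0 of the 7, against 4.25% of the genes, because the largest ratio among the 7 was 1.55.

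The differences found were small. Hadh, the medium and short chain hydroxyacyl-CoA dehydrogenase gene, had 9 or 10 spots per array with means of 0.44, 0.14, 0.36 and 0.28 (adjusted p = 2.62e-08, highest over lowest 1.23-fold). With the scaling used here, its lowest spot on replicate 1, 0.37, was above the highest on replicate 2, 0.32. The size of the Hadh difference depended on the scaling. With the 75th percentile over all probes it was 1.08-fold (limma adjusted p = 0.0241). Under the median of detected probes it was 1.12-fold, with replicate 3 highest. Acadl differed by 1.27-fold (adjusted p = 1.5e-07) and Acads by 1.23-fold (adjusted p = 1.89e-06). For Idh2 the 10 spots of each array averaged 2.26, 2.25, 2.06 and 2.26 (adjusted p = 1.54e-05, 1.15-fold), and replicate 3 was the low array, with spots of 2.00 to 2.22. Without replicate 3 the limma test for Idh2 gave an adjusted p of 0.819.

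Acsl5 and Decr1, printed at 2 spots, differed by 1.33-fold (adjusted p = 0.00128) and 1.55-fold (adjusted p = 0.00234). Without replicate 2 the adjusted p of Decr1 in limma was 0.0806. After normexp, 3 of the 7 were called (Idh2, Acadl and Hadh), against 61.7% of the 871 named genes. There limma's adjusted p was 0.14 for Acsl5, 0.0759 for Acads and 0.0853 for Decr1. For Cs, whose 2 spots lay as far apart as -0.12 and 0.23 on replicate 1, the adjusted p was 0.955 and the spot SD 0.162, and with 2 such spots per array this does not show that the arrays were alike.

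**Figure D3:**
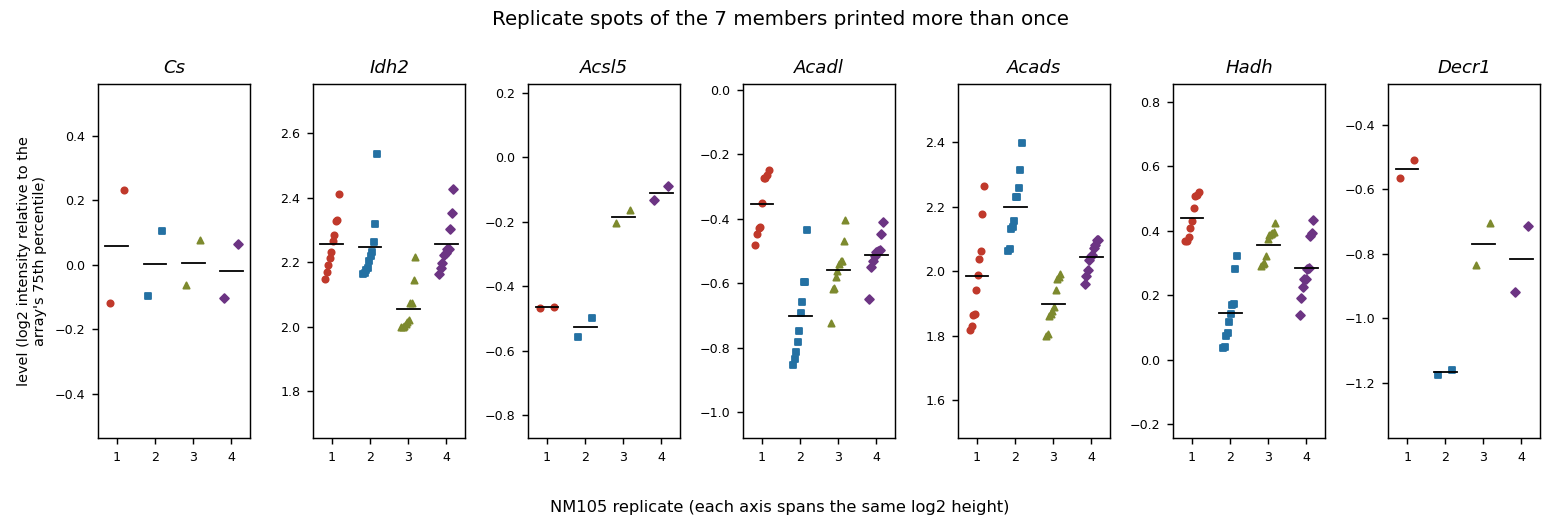
Level of every spot (log2 intensity relative to the array's 75th percentile, vertical axes of equal height) of the 7 members printed more than once, by NM105 replicate; bars are array means. With this scaling, spots of Hadh on replicates 1 and 2 do not overlap, those of Idh2 are low on replicate 3, and the spots of Cs overlap on all arrays.

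With the scaling used here, the members as a set sat above their own means on replicate 1 and below them on replicate 2. The mean deviation of the 42 members from their own means was 0.13, -0.11, 0.00 and -0.01 on replicates 1 to 4, against 0.05, -0.03, -0.01 and -0.01 over all detected named genes. Replicate 1 was the highest array for 22 members (52.4%), against 37.8% of all genes, and replicate 2 the lowest for 21 (50.0%), against 32.2%. Under the 4 other scalings these counts ranged from 11 to 23 members (20.5% to 34.4% of all genes) for replicate 1 as the highest array, with 11 after normexp, and from 13 to 21 members for replicate 2 as the lowest, with 13 under the 75th percentile over all probes. The mean deviation on replicate 1 was 0.29 for pyruvate entry, 0.10 for the TCA cycle and 0.11 for fatty acid oxidation. With the 4 other scalings it was 0.00 to 0.10 for the TCA cycle, and for fatty acid oxidation it was 0.01 to 0.08, or -0.02 after normexp. Within fatty acid oxidation, with the scaling used here, it was 0.23 for the acyl-CoA dehydrogenases, 0.20 for the auxiliary genes, 0.15 for the later steps and 0.06 for the flavoprotein system, while activation and the carnitine shuttle stood at -0.06. Among the dehydrogenases, Acadm deviated by 0.57 and the others by -0.05 to 0.20. Among the auxiliary genes, Hsd17b4 deviated by 0.67 and the others by -0.21 to 0.29. Means of these small groups under the other scalings are not given here.

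The size of this shift depended on the scaling, which also moved all genes: the median deviation of all genes on replicate 1 was 0.06 here and -0.08 after normexp. Taken relative to the median of all genes, the median of the 42 members stood at 0.07 on replicate 1 and -0.12 on replicate 2. Scalings that subtract another constant from each array leave this difference as it is. The 2 that do more gave 0.09 and -0.10 (quantile normalization) and 0.10 and -0.10 (normexp) on replicates 1 and 2. The pyruvate entry mean on replicate 1 was 0.19 to 0.21 with the 3 other scalings of the processed intensity and 0.02 after normexp. Of the 22 members highest on replicate 1, 7 were highest there under every scaling (Dld, Suclg2, Mdh2, Idh1, Acadl, Decr1 and Hsd17b4). Of the 21 lowest on replicate 2, 9 were lowest there under every scaling. Such counts were not made for all genes, so they do not set the members apart. Replicate 1 was also the brightest array, and the part of array brightness in the shift was not tested. These values describe 4 arrays, and a shift shared by members on 1 array cannot be told apart from the handling of that array.

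**Figure D4:**
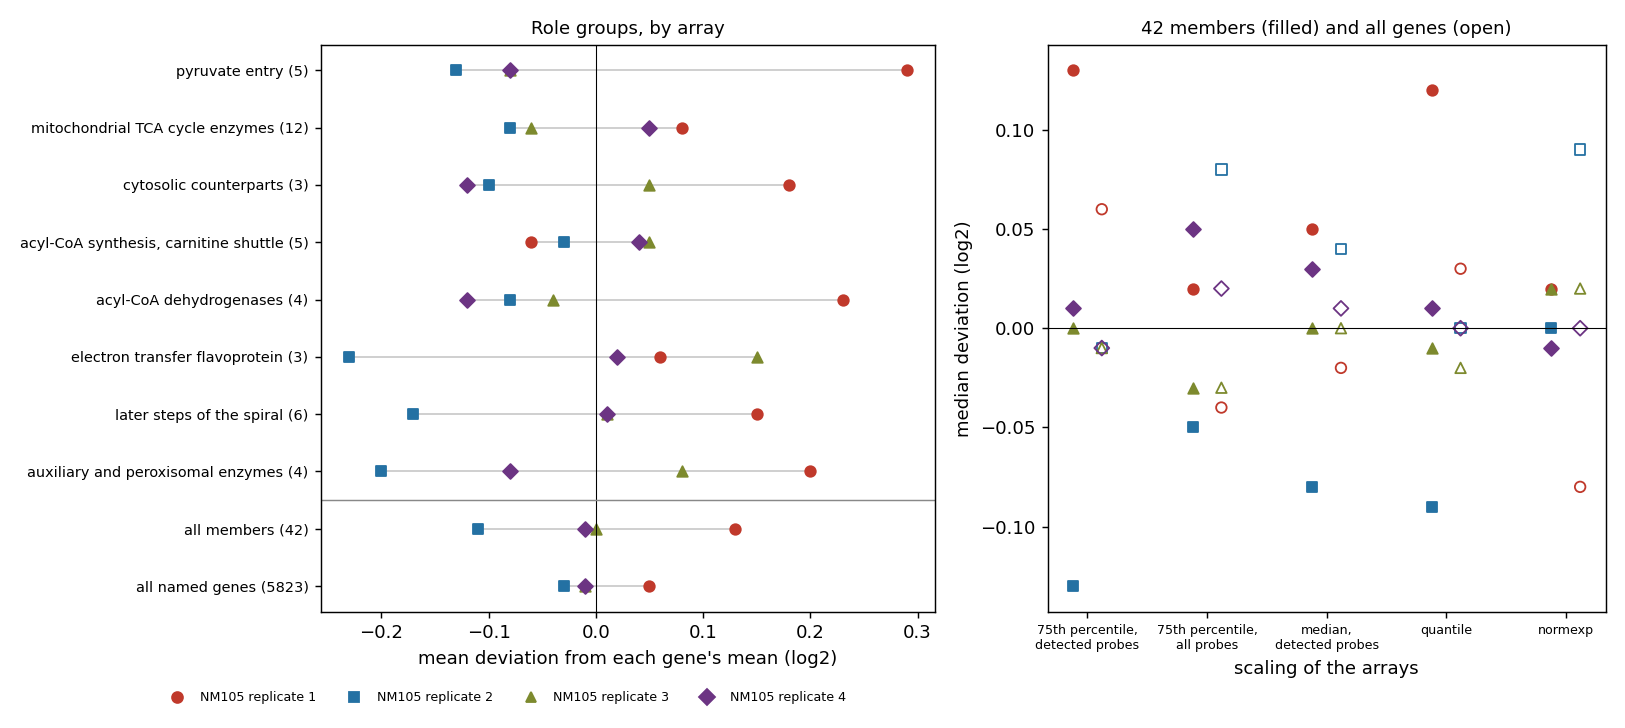
Left, mean deviation from each gene's own mean (log2) for the role groups on each NM105 array, with the number of genes in parentheses and all members and all named genes below. Right, median deviation (log2) of the 42 members (filled) and all genes (open) under 5 scalings. The gap between members and genes is fixed by construction across the 75th percentile and median scalings, at 0.07 on replicate 1 and -0.12 on replicate 2, and was 0.10 and -0.10 after normexp.

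In 4 members several probes read the same gene, and they did not always follow the same arrays. For Hadha, 2 probes had an SD of 0.03 and the third 0.25. For Dlst, 3 probes detected on all 4 arrays had SDs of 0.11, 0.66 and 0.33. The first and second were lowest on replicate 1, where the third was highest, so the steadiness of Dlst depends on the probe chosen, and the mean over its probes had an SD of 0.23. Dlat was highest on replicate 3 by its first probe and on replicate 1 by its second. For Pdha1 the first probe was detected on 4 arrays, the second on 2 and the third on 1.

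**Figure D5:**
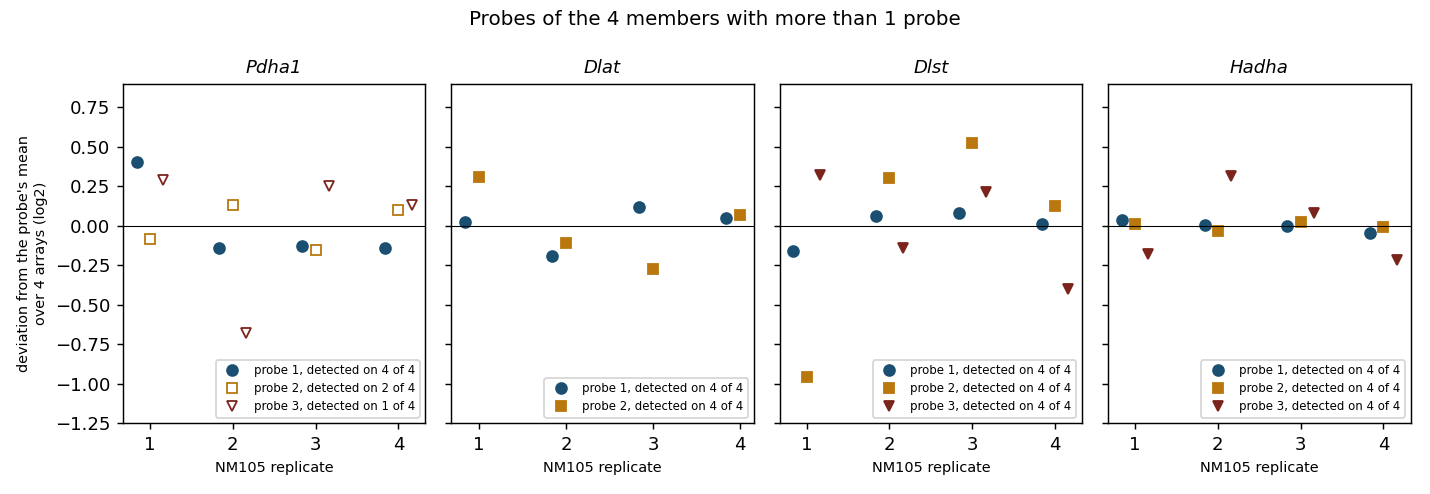
Deviation of each probe from its own mean over the 4 NM105 arrays (log2, vertical axis) for Pdha1, Dlat, Dlst and Hadha; open symbols are probes not detected on every array. The second Dlst probe is low on replicate 1, while 2 of the 3 Hadha probes stay near 0.

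Further genes of the same pathways came from lists beyond the 46. Of 14 further genes of the TCA cycle and its refilling, 13 were detected on all 4 arrays, among them Sdha and Sdhb (subunits of succinate dehydrogenase), with levels of -0.32 ± 0.13 and 1.28 ± 0.18 (SD, n = 4 for each). Dhtkd1, which encodes a subunit of 2-oxoadipate dehydrogenase, was detected on none. Of 9 genes of pyruvate import and control of the pyruvate dehydrogenase complex, 6 were detected on all arrays, among them the carrier subunits Mpc1 (0.62 ± 0.11) and Mpc2 (-0.24 ± 0.06) and the inhibitory kinase Pdk1 (-3.33 ± 0.37, SD, n = 4 for each). Pdk4, the kinase known to rise on fasting, and Pdpr, a regulator of the opposing phosphatase, were undetected throughout.

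Of 21 other genes of fatty acid oxidation, 12 gave signal on every array, 4 on part of the arrays and 5 on none. The carnitine-acylcarnitine carrier Slc25a20 (-1.59 ± 0.13), and the acyl-CoA dehydrogenase relatives Acad9 (-1.26 ± 0.17) and Acad11 (-1.81 ± 0.16, SD, n = 4 for each) were among the detected. Cpt1b, the muscle form of the outer carnitine palmitoyltransferase, and the peroxisomal oxidase gene Acox3 were undetected on all 4 arrays. Of 11 transcription factors and coactivators of these genes, 5 were detected on all arrays, including Pparg (1.68 ± 0.05), Esrra (1.31 ± 0.10) and Nrf1 (-4.26 ± 0.47, SD, n = 4 for each). Pparg, the nuclear receptor that directs lipid handling and the maturation of alveolar macrophages, thus gave signal, while Ppara and Ppard, its relatives known for driving fatty acid oxidation in liver and muscle, were undetected on all 4 arrays.

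Promoters were searched for the sites of such factors because the members span mitochondrial, cytosolic and peroxisomal enzymes whose genes are known targets of them. RefSeq promoters (build GRCr8, 250 bases before to 50 after the start) were available for 41 of the 46 members. All motifs were searched on both strands. Sites of the ETS family, to which GABP, a regulator of mitochondrial genes, belongs, were searched as CCGGAAGT. They lay in 3 member promoters (7.32%), against 3.81% of all 33469 promoters in the table and 9.95% of 5186 promoters of genes detected on all 4 arrays. The 3 stretches of 60 bases are shown with the match in capitals, since they place it at different distances from the start: 74 bases before the start of Cpt2, 21 bases before that of Dlst, where the match is on the opposite strand, and 242 bases before that of Mdh2.
Cpt2, chr5:127910859-127910918, minus strand: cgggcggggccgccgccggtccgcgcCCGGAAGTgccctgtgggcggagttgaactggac
Dlst, chr6:110489659-110489718, plus strand: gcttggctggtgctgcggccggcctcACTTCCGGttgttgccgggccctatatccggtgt
Mdh2, chr12:26544032-26544091, minus strand: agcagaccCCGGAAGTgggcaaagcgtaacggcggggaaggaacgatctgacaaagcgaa
The E-box CACGTG was in 2 member promoters, those of Ogdh and Pdhb (4.88%, against 6.42% of all promoters and 10.2% of those of detected genes). The letters TCAAGGTCA (the element of estrogen-related receptors) were in 0 of 41 member promoters, against 0.433% of all promoters and 0.212% of those of detected genes. The core CGCATGCG of NRF1 sites was likewise in 0, against 1.66% of all promoters and 4.13% of those of detected genes. A direct repeat of AGGTCA with 1 base between, the PPAR element, which shares AGGTCA with the receptor element, was in 0, against 0.0538% and 0.0386%. Median GC content was 61.3% in the member promoters, 51.7% in all and 60.7% in those of detected genes.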

How the data were processed

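The authors' deposited files hold 1-colour spot intensity from Agilent Feature Extraction 11.0.1.1, per the file headers and the submitters' processing notes. Per the file headers, the deposited processed intensity was background-subtracted and detrended inside each array, low spots were set to a floor, and arrays were not normalized against each other. The deposited files also give median spot and background intensity, and 0 or 1 marks for signal well above background and for outlying spots.

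Control spots (308 negative controls among 62976 spots per array) and outlier spots (486 to 723 of 58717 gene spots) did not enter the levels, and none was saturated. Log2 values were averaged over the spots of each probe. From them was subtracted the 75th percentile of the array over the probes detected on all 4 arrays, because only 22.9% of probes were. Detection asked that over 50% of the spots of a probe be marked well above background, and for a gene that any probe pass. The probe with the highest mean stood for its gene. Accessions were paired with symbols through a RefSeq table of GRCr8, used for names only: 21109 of 45598 probes matched. The test between arrays (limma 3.58.1 under R 4.3.3, with lmFit, eBayes and the moderated F adjusted by Benjamini-Hochberg) took probes with at least 2 spots, detected on all 4 arrays, and was tested on simulated data. The simulated arrays differed only in a chosen set of probes changed on a single array. They therefore do not show how the test behaves in these data, where most genes were called. Remaining steps ran in Python 3.11.15 with pandas 2.3.3, numpy 2.4.6 and matplotlib 3.10.9.

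The other 4 scalings were the 75th percentile over all probes, the median of detected probes, quantile normalization, and normexp background correction of the median signal with an offset of 50, since the files used here have no mean signal. Further alternatives were other detection rules, the mean over probes, no filter on dim probes, fold minima of 1.5 and 2, the upper or lower part of the array as a block, and leaving out each replicate.

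The members, lists and tests were chosen with earlier results of these data known. Per-array values were given for members past the test between arrays, those with the highest and lowest SD of each role group, and Pdha1, Pc, Cs, Acod1, Cpt1a, Acadm, Hadha and Etfa. Ranges or orders of arrays for Ogdh, Pdhb, Idh3a, Idh3b, Idh3g, Etfb, Acsl4, Eci2, Suclg2 and Mdh2 were added after their values were seen. From each list of further pathway genes, the first 3 detected and first 2 undetected genes were named. A gene that this rule picks is not reported here.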

Additional observations from a re-analysis of the deposited data

Results flagged for a closer look

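With 4 arrays, Dixon's ratio (the gap of the extreme array to its neighbour over the whole range) marks a value as apart when it exceeds its critical value, which chance does in about 1 of 20 sets. Among the 42 detected members it marked 2 (4.76%), against 351 of 5823 detected named genes (6.03%). By the probe used here, Pdha1 stood at -3.78 on replicate 1, with the other arrays from -4.32 to -4.31 (ratio 0.968). After normexp, and by its second probe, replicate 2 was the highest array for Pdha1. Idh2 was at 2.06 on replicate 3, with the other arrays from 2.25 to 2.26 (ratio 0.943). The mean deviation of the 5 pyruvate entry genes was 0.29 on replicate 1, with the others from -0.13 to -0.08 (ratio 0.882).

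Among the other pathway genes named, the carnitine-acylcarnitine carrier gene Slc25a20 was at -1.41 on replicate 3, against -1.68 to -1.64 on the others (ratio 0.839). Esrra, which encodes an estrogen-related receptor, was at 1.46 on replicate 2, against 1.25 to 1.28 on the others (ratio 0.838).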

How the results depend on the processing

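Between 41 and 45 members were detected under the detection rules tried and with each replicate left out, against 42 as reported, and their median SD stayed between 0.152 and 0.212. Of the 7 members tested, limma called 6 as differing between arrays as reported (84.6% of named genes) and 3 after normexp (61.7%). It called 1 with a fold minimum of 1.5, against 224 of 871 named genes. With a minimum of 2 it called 0, against 4.25%. With each replicate left out the count was 5 to 6 (69.1% to 80.5% of named genes). The count was 6 (79.9% to 85.6%) under the 3 other scalings of the processed intensity, without the filter on dim probes and with a top or bottom block. The mean deviation of the members on replicate 1 was 0.13 as reported, 0.03 with the 75th percentile over all probes and 0.01 after normexp. On replicate 2 it was -0.11 as reported and -0.01 after normexp. Normexp, run on the median signal with an offset of 50, changed the input as well as the offset. The SD of 13 of the 42 members was over 1.5 times lower after it and that of 3 over 1.5 times higher, and the cause was not tested. Without replicate 1 the SD of 16 members was over 1.5 times lower, and without replicate 2 that of 8. These SD counts were made for members only. The median SD after normexp was 0.157 for members and 0.183 for all genes, against 0.202 and 0.225 as reported. No paired analysis was possible because the arrays form 1 group. Signal over background limits the dim members, and the number of arrays, 4, limits every SD.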
